A study of Mus musculus with 4 samples.

Results

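Nephron progenitor and early nephron genes were measured in cells of the ureteric bud and collecting duct, sorted by green fluorescence from newborn mouse kidneys. The set held 10 genes, Six2, Osr1, Sall1, Eya1, Meox1, Cited1, Crym, Dapl1, Wt1 and Fgf8, out of 16358 genes with a symbol on the array, and was measured by 12 of 41174 probes. Probes were assigned through the accession each carries, matched to mouse RefSeq transcripts, and no expression value entered the choice of probes. Osr1 and Meox1 had 2 probes each, and the Wt1 and Fgf8 probes were each printed in 10 spots per array.

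Nephron progenitors are the cap mesenchyme cells that surround each ureteric bud tip. Signals from the tip keep some of them dividing and push others to form pretubular aggregates and renal vesicles, which become the tubules and glomeruli. In the mouse the progenitors are used up soon after birth. They do not belong to the ureteric lineage, so the 10 genes are in the main genes of a neighbouring cell type. Wt1 is also active in podocytes, the filter cells of the glomerulus, and Sall1 in stroma.

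Knockout cells came from HoxB7CreEGFP+; PRR flox/flox mice and wild-type cells from CreEGFP+ PRR+/+ mice, both at postnatal day 1, where PRR is the (pro)renin receptor encoded by Atp6ap2. All animals thus carried the Cre and green fluorescent protein transgene, driven by the HoxB7 promoter, which is active in the ureteric epithelium. The samples are called pools, with the number of animals not given in the sources used here. Each of the 4 two-colour arrays received 0.5 µg of total RNA per labelling reaction: KO_vs_WT replicates 1 and 2 carried knockout RNA in Cy5 and wild-type pool 1 or pool 2 in Cy3, and WT_self replicates 2 and 1 carried wild-type pool 2 or pool 1 in both dyes. Groups follow the source named for each channel. Array titles call the KO_vs_WT arrays wild type and the WT_self arrays knockout, and descriptions exchange the pools of the WT_self arrays. If the titles held, every direction between knockout and wild type would turn. Of the markers of the proximal tubule, which separate the pools, the summed level in Cy3 was 23861 for pool 2 on KO_vs_WT replicate 2, beside 21243 on the WT_self array whose source is pool 2 and 2793 on that whose source is pool 1. Nothing says that arrays of a group came from separate pools of animals, beyond the 2 numbered wild-type pools, so p-values measure the spread between arrays, which may be technical.

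The Cy3 channel of KO_vs_WT replicate 1 had 28 probes well above background and is not used, which leaves 7 channels. These had 14935 to 22713 probes well above background, the most in Cy5 of KO_vs_WT replicate 1. The targeted gene Atp6ap2 stood at 8.08 and 7.71 (log2 Cy5 level) on the knockout arrays, against 8.51 and 8.38 in pools 2 and 1, a knockout minus wild-type value of -0.55 ± 0.17 (SE, 2 arrays of each genotype, limma adjusted p = 0.806). Of 16 ureteric bud and collecting duct markers, 16 were well above background in every one of the 7 channels.

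The upstream sequences of 3 genes are given because they bracket the result: Six2, which defines the cap mesenchyme and was not measured above background here, and Cited1 and Dapl1, which were above background in every channel and had lower Cy5 levels on each knockout array than in either pool. They were chosen after these values were seen. Crym had the same pattern as Cited1 and Dapl1 but no entry among the upstream sequences. They are the 250 bases before the outermost annotated start, 5′ to 3′ on the gene's strand, from RefSeq on GRCm38.p6, where 4 of the 10 genes had an entry. Six2 lies at chr17:85688255-85688504 (minus strand), Cited1 at chrX:102252182-102252431 (minus strand, 3 annotated starts) and Dapl1 at chr2:59484403-59484652 (plus strand). Capitals mark TATAAA, the sequence of the TATA box, and TCAGGTT, the core of the MEF3 site, which Six2 and related homeobox proteins bind. Both were searched for as letters alone, wherever in the window they lie.
Six2: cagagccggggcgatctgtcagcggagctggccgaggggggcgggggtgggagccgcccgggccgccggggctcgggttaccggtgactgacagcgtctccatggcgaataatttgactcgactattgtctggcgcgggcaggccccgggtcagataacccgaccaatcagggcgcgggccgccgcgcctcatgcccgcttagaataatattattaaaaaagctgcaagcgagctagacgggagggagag
Cited1: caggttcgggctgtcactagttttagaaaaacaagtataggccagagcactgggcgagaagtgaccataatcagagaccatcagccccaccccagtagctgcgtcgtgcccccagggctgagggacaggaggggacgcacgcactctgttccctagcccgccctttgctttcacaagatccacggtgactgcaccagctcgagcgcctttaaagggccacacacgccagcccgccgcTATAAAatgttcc
Dapl1: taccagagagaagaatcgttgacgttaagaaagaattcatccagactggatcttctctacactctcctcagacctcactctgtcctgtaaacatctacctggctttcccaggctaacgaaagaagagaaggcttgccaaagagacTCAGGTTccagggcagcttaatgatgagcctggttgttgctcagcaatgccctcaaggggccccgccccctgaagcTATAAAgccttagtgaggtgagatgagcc

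Both strands were searched. TATAAA began 13 bases before the start in Cited1 and 29 in Dapl1, and TCAGGTT began 105 bases before the start in Dapl1. The 2 motifs do not overlap. In all 32851 RefSeq windows of this length TATAAA was found in 12.4% and TCAGGTT in 3.49%. The Six2 window held neither string of letters.

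Six2, the homeobox gene that keeps progenitors from differentiating, was not well above background in any of the 7 channels. Its Cy5 signal over local background was 21.5 and 18 units on the knockout arrays and 9 and 12.5 in pools 2 and 1. Sall1, a zinc finger gene needed in progenitors, was above background only in Cy5 of KO_vs_WT replicate 1, the brightest channel, with a signal of 45.5 there, 14 on the other knockout array, and 15 and 7 in pools 2 and 1. Meox1, a homeobox gene of the cap, was above background with its brighter probe in Cy5 of KO_vs_WT replicate 1 (47.5) and of pool 1 (27), against 10 each on KO_vs_WT replicate 2 and in pool 2. These 3 genes did not enter the test of knockout against wild type.

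Osr1, which marks the intermediate mesoderm that gives rise to the kidney, was above background with its brighter probe in both knockout channels, in pool 1 in Cy5 and in 1 of 2 Cy3 channels of pool 2. Its other probe was above background only in Cy5 of KO_vs_WT replicate 1. Eya1, a phosphatase and transcriptional partner of Six2, was above background in Cy5 of all 4 arrays and in 1 of 3 Cy3 channels. Cited1, a transcriptional co-regulator of the least committed progenitors, Crym, a thyroid hormone binding protein of the cap, and Dapl1, a small protein gene of the cap, were above background in all 7 channels. Wt1, a zinc finger regulator of progenitors and podocytes, and Fgf8, the growth factor on which the survival of early nephron cells depends, were above background in Cy5 of all 4 arrays. The plot of Cy5 levels sets out which values are measured and which lie at background.

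**Figure D1:**
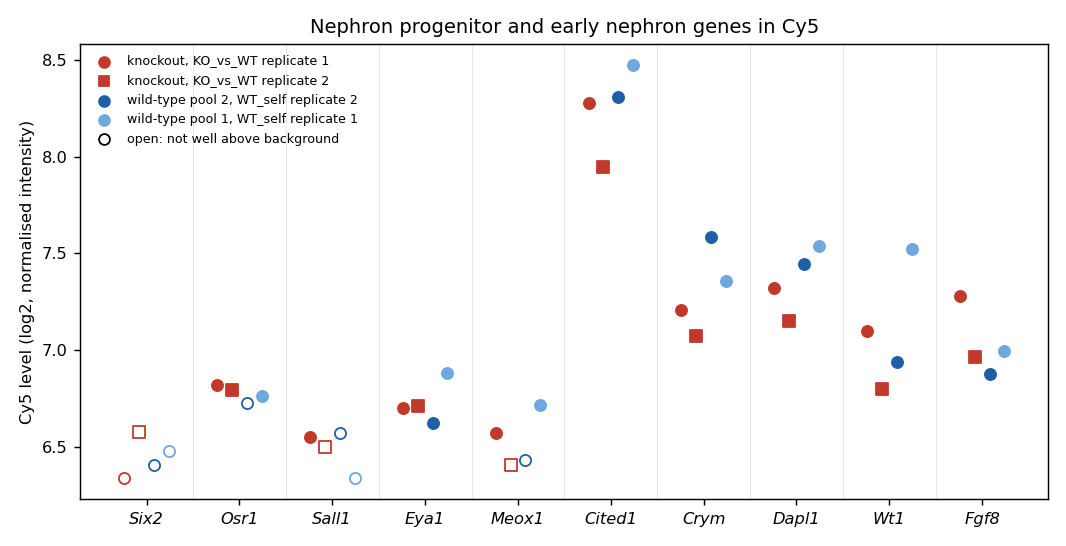
Log2 Cy5 level (vertical axis, normalised intensity) of the 10 genes on 4 arrays, with the brighter probe for Osr1 and Meox1. Red points are the knockout arrays, dark blue points pool 2 and light blue points pool 1, and open symbols were not well above background. Six2 is open on all 4 arrays, and Cited1, Crym and Dapl1 have both red points below both blue points on this quantile normalised scale, while with median centring the differences of Cited1 and Dapl1 were positive and that of Crym was -0.016.

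The first comparison asked which of these genes differed between knockout and wild-type cells in Cy5 of all 4 arrays. Of the 7 genes tested, 5 had a negative difference and 2 a positive one, and the median log2 difference was -0.26, where the median of all 16086 genes tested was 0.022. Cited1, Crym and Dapl1 had lower levels on each knockout array than in either pool, although with median centring in place of quantile normalization the differences of Cited1 and Dapl1 turned positive and that of Crym was -0.016. No gene of the set passed the test, and no gene of the whole array did, at 0% higher and 0% lower with a limma adjusted p under 0.05 (669 genes had an unadjusted p under 0.05, none of them in this set). Missing the threshold does not show equal levels. In the same comparison the median was -1.81 for 7 proximal tubule markers (7 negative), -1.14 for 5 loop and distal tubule markers (5 negative), -0.23 for 5 endothelial markers (4 negative), -0.049 for 3 podocyte markers, -0.079 for 4 leukocyte markers, 0.057 for 10 stromal markers, 0.083 for 3 erythroid markers and 0.27 for 16 ureteric bud and collecting duct markers. The part of these cell types in the values of the 7 genes was not tested.

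Cited1 had a Cy5 level of 8.28 and 7.95 on KO_vs_WT replicates 1 and 2, against 8.31 and 8.48 in pools 2 and 1. Knockout and wild-type values did not overlap, but the first knockout array and pool 2 lay close together. Knockout minus wild type was -0.28 ± 0.16 (SE, 2 arrays of each genotype, limma adjusted p = 0.806), or 0.823 of the wild-type level. It was -0.12 without KO_vs_WT replicate 2 and -0.45 without KO_vs_WT replicate 1.

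Crym stood at 7.21 and 7.07 on the knockout arrays, against 7.58 and 7.36 in pools 2 and 1. All knockout values were below all wild-type values, by the widest margin from pool 2. The difference was -0.33 ± 0.14 (SE, limma adjusted p = 0.806). Without WT_self replicate 1, which sets knockout against pool 2 alone, it was -0.44 (limma adjusted p = 0.0282), in a fit that called 15.6% of genes higher and 11.5% lower and took its spread from the knockout arrays alone, with the single wild-type array assumed to vary as they do. It was -0.22 without WT_self replicate 2, and over the 4 fits that left out 1 array the adjusted p for Crym ran from 0.0282 to 1.

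Dapl1 stood at 7.32 and 7.15 on the knockout arrays, against 7.45 and 7.54 in pools 2 and 1, again without overlap. The difference was -0.26 ± 0.13 (SE, limma adjusted p = 0.806). Groups that do not overlap, lower in knockout, were found in 17.7% of all genes tested and in 3 of the 7 here. Higher in knockout, they were found in 21.9% of all genes and in 1 of the 7, Osr1. The share that was lower is above that of all genes, but it rests on 7 genes and carries no test.

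Wt1 was at 7.10 and 6.80 on the knockout arrays and at 6.94 and 7.52 in pools 2 and 1. The groups overlapped, with pool 1 alone clearly above the others. The difference of -0.28 ± 0.24 (SE, limma adjusted p = 0.810) was carried by that pool, and without WT_self replicate 1 it was 0.011.

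Fgf8 was at 7.28 and 6.96 on the knockout arrays and at 6.87 and 6.995 in pools 2 and 1. KO_vs_WT replicate 1 was above the other three arrays, which lay close to each other. The difference was 0.19 ± 0.16 (SE, limma adjusted p = 0.807), and 0.027 without that array.

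Eya1 was at 6.70 and 6.71 on the knockout arrays, between 6.62 in pool 2 and 6.88 in pool 1. Its difference was -0.049 ± 0.14 (SE, limma adjusted p = 0.934), and 0.082 without WT_self replicate 1. Osr1 was at 6.82 and 6.79 on the knockout arrays, against 6.72 in pool 2, where it was not well above background, and 6.76 in pool 1. It entered the test through the knockout arrays, and the difference of 0.063 ± 0.11 (SE, limma adjusted p = 0.885) rests in part on a pool 2 value at background, so no direction is read from it.

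These values depend on the scale. An offset of 50 was added to each background-corrected intensity, which draws dim probes together and understates their differences. With the scanner software's processed signals the difference was -0.24 for Cited1, -0.62 for Crym, -0.78 for Dapl1, -0.63 for Wt1, -0.33 for Eya1, 0.35 for Osr1 and 0.33 for Fgf8. None passed the test there (limma adjusted p from 0.824 to 0.838). Median centring shifted the all-gene median to 0.33. Cited1 at 0.19 and Dapl1 at 0.041 then had a positive sign and still lay below that median, by 0.14 and 0.29 on the log2 scale.

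The knockout was also set against each wild-type pool, on a scale on which the 7 channels were normalised together. There is 1 pool on the wild-type side, and these are values without a test. Levels and differences from here on are on this 7-channel scale. A gene counted as past the size limit where both knockout arrays differed from the pool by at least 1.5-fold the same way. None of the 8 genes measured was past it, against pool 1 (0.428% of all genes higher, 0.104% lower) or against pool 2 (3.76% higher, 3.91% lower). Against pool 1, 6 of 8 differences were negative, with a median of -0.17, where all genes had a median of -0.0091. Meox1 is among the negative ones and entered only through pool 1, which favours a negative value there. Against pool 2, 3 of 8 were negative, with a median of 0.026 where all genes had 0.033. Cited1, Crym and Dapl1 were the 3 that were negative against both pools.

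Cited1 was at 0.803 of the level of pool 1 and 0.890 of that of pool 2. Dapl1 was at 0.848 and 0.892 in the same order, and Crym at 0.890 and 0.787. Each of these 3 genes was below each pool on both knockout arrays on this quantile normalised scale. Cited1 on KO_vs_WT replicate 1 differed from pool 2 by only -0.027. With median centring the median of the 8 genes against pool 2 was 0.29, where all genes had 0.53. Wt1 was at 0.738 of pool 1 and 1.01 of pool 2, so its difference concerned pool 1. Eya1 lay below pool 1 on both knockout arrays, with differences of -0.13 and -0.13, and above pool 2 on both, with differences of 0.056 and 0.061.

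On KO_vs_WT replicate 2 knockout RNA and pool 2 shared an array, and the self array of pool 2 gives the dye difference of each probe. Crym had a log2 ratio of knockout over pool 2 of -0.47, beside 0.061 on the self array. Dapl1 had -0.36 beside -0.11, and Cited1 -0.21 beside 0.19. These 3 genes were thus lower in knockout on the shared array too, although that array supplies its Cy5 values to the comparisons above. Wt1, at 0.050 beside 0.032, showed no such shift. Fgf8, at -0.20 beside -0.068, had the sign opposite to its Cy5 difference from pool 2. That difference was 0.065 on the same knockout array and 0.18 as the mean of both knockout arrays. Over the 8 genes the median of the shared-array ratio less the self-array ratio was -0.12, and over all genes 0.030.

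**Figure D2:**
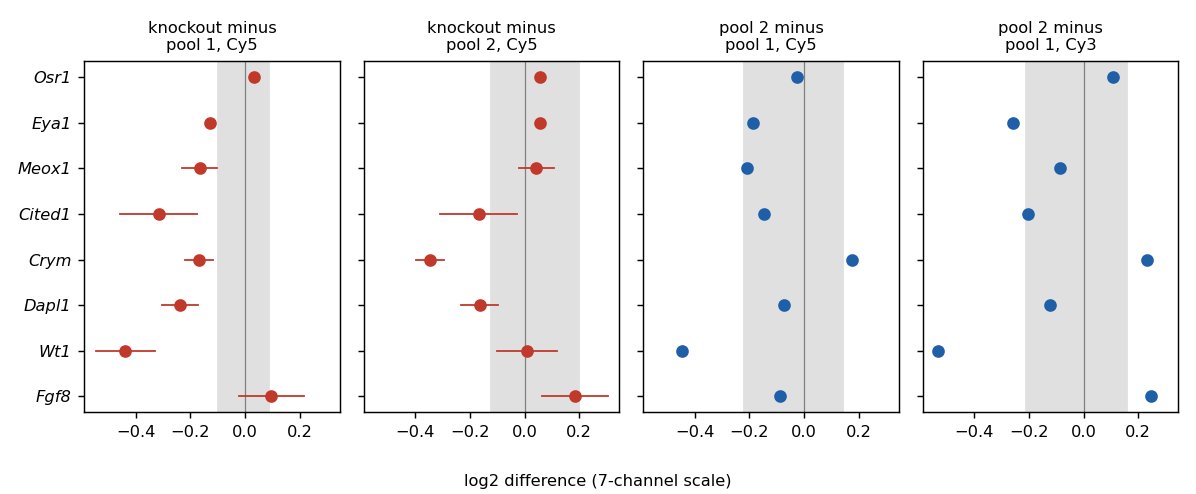
Log2 differences (horizontal axis, 7-channel scale) of the 8 measured genes for knockout minus pool 1, knockout minus pool 2, and pool 2 minus pool 1 in Cy5 and in Cy3. Bars join the values of the 2 knockout arrays, points without a bar are single differences, and grey bands run from the lower to the upper quartile of all genes. Wt1 is near -0.44 against pool 1 and near 0 against pool 2. Cited1, Crym and Dapl1 are below 0 against both pools on this quantile normalised scale.

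The wild-type pools were compared with each other as a measure of how far these genes vary without the deletion. Each pool is 1 sample, whatever number of channels carried it, so these are values without a test. No gene of the set differed at least 1.5-fold the same way in Cy5 and Cy3, where 3.77% of all 17274 genes were higher in pool 2 and 3.38% lower. In Cy5, 7 of the 8 differences were negative, with a median of -0.12 (all genes -0.037), and in Cy3, 5 of 8 with a median of -0.11 (all genes -0.024). Meox1, negative in both, entered only through Cy5 of pool 1, which favours a negative difference in Cy5.

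Wt1 was lower in pool 2 in both dyes. Its level was 6.78 in Cy5 and 6.62 and 6.64 in Cy3 for pool 2, against 7.23 in Cy5 and 7.17 in Cy3 for pool 1. Every pool 2 channel was below both pool 1 channels, with differences of -0.45 in Cy5 and -0.53 in Cy3. In Cy3 Wt1 was not well above background for pool 2, with 5 of 10 spots above background in each channel of that pool. Taken from the probe's own level, pool 2 was 1.45-fold lower there. With processed signals the differences of Wt1 were -1.21 and -1.52 and those of Eya1 -0.78 and -0.63. Both genes were then past 1.5-fold in both dyes. For Eya1 the Cy3 value rests on a pool 1 level that was not well above background. Meox1, not well above background in pool 2, stood at -1.84 in Cy5 and -0.017 in Cy3 on those signals.

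The 10 spots of the Wt1 probe show how much of this is spot error. In Cy5 the spots ran from 6.67 to 6.91 for pool 2 (SD 0.077) and from 7.19 to 7.27 for pool 1 (SD 0.035, 9 spots after outlier flags), with no overlap. Knockout spots ran from 6.79 to 7.04 on replicate 1 and from 6.60 to 6.79 on replicate 2, all below all pool 1 spots. Spots of 1 array share 1 labelling reaction, so their spread leaves out the variation between labellings and between animals.

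The Fgf8 probe differed between dyes. In Cy5 its spots averaged 6.73 for pool 2 and 6.82 for pool 1. In Cy3 they averaged 6.98 and 6.91 for pool 2 and 6.70 for pool 1, where 3 of 10 spots were above background. Pool 2 was thus 1.19-fold higher in Cy3, over a pool 1 level not well above background. Pool 2 was lower in one dye and higher in the other, and no direction can be given. In Cy5 of KO_vs_WT replicate 1 the spots averaged 7.04 (SD 0.083), and on replicate 2 they averaged 6.80 (SD 0.086), a gap between knockout arrays wider than that between the pools in Cy5.

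**Figure D3:**
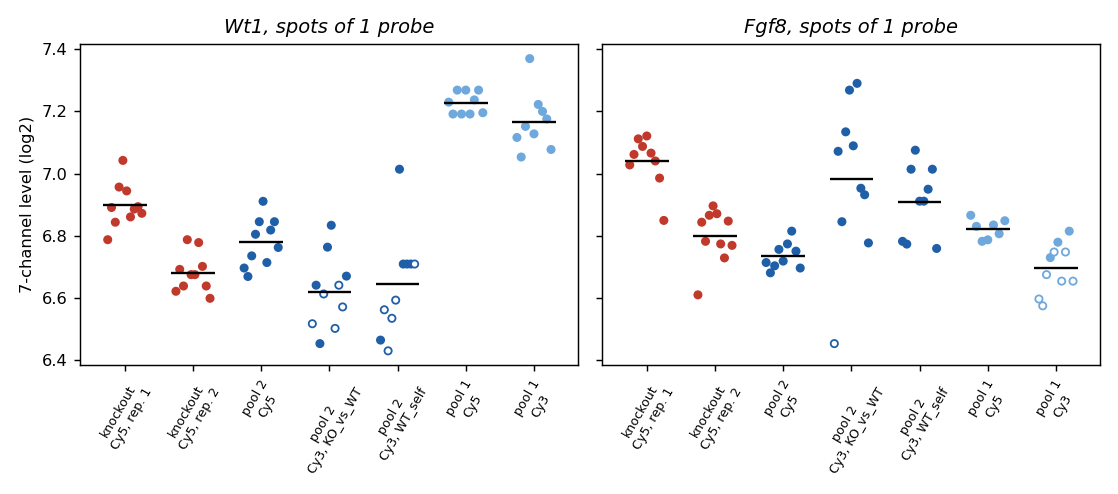
Levels (vertical axis, log2, 7-channel scale) of the single spots of the Wt1 and Fgf8 probes in the 7 channels, after outlier flags, with the mean as a line. Open points were not well above background. All Wt1 spots of pool 1 in Cy5 lie above all knockout spots and above all pool 2 spots in Cy5, and Fgf8 shows no such split.

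Crym went the other way from Wt1. Its level in pool 2 was 7.28 in Cy5 and 7.31 and 7.16 in Cy3, against 7.10 in Cy5 and 6.9995 in Cy3 for pool 1, so pool 2 was 1.13-fold higher in Cy5 and 1.18-fold in Cy3. Cited1 was lower in pool 2, at 7.88 in Cy5 and 7.77 and 7.68 in Cy3, against 8.03 and 7.93 in pool 1. Dapl1 was at 7.17, 7.27 and 7.38 in pool 2 and at 7.24 and 7.45 in pool 1. Crym thus stood apart from the other 2 genes measured in every channel. Osr1 in pool 2 was 1.02-fold lower in Cy5 and 1.08-fold higher in Cy3, so no direction can be given. In each dye the lower pool was not well above background. Meox1 was 1.16-fold lower in pool 2 in Cy5, where pool 2 was not well above background.

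Markers of differentiated tubules differed between the pools by more than these genes did. Those of the proximal tubule, a differentiated nephron segment, had a median pool 2 minus pool 1 difference of 2.25 over 7 genes measured of 9 listed, and those of the loop and distal tubule 1.83 over 5 of 6. The summed level of the 7 proximal tubule markers on the array was 1388 to 1969 in knockout Cy5, 21211 in Cy5 of pool 2 and 2740 in Cy5 of pool 1. In bulk RNA fewer cells of a type and less RNA per cell cannot be told apart. The nephron progenitor genes had a median of -0.12 in the same comparison, and the part of tubule cells in their values was not tested.

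Wt1 is also a podocyte gene. The podocyte list had a median of 0.23 in pool 2 over pool 1, opposite to Wt1, with 5 of its 8 markers measured and a summed level over the 7 on the array of 906 to 971 in knockout Cy5, 1159 in Cy5 of pool 2 and 1007 in that of pool 1. Nphs1, which defines podocytes, was not above background in any channel. Stromal genes had a median of -0.30 in pool 2 over pool 1, of -0.18 in knockout over pool 1 and of 0.18 in knockout over pool 2. Wt1 stood at -0.45, -0.44 and 0.0090 in the same order. The summed level of the 12 stromal markers was 3140 to 3596 in knockout Cy5, 2644 in Cy5 of pool 2 and 4212 in that of pool 1, while Foxd1, which defines cortical stroma, was above background in 1 channel. The part of stromal cells in the Wt1 values was not tested. Of the remaining marker lists, the pool 2 minus pool 1 median in Cy5 was -0.23 for ureteric bud and collecting duct, -0.19 for endothelium, -0.17 for leukocytes and -0.78 for erythroid cells, all in the same direction as the nephron progenitor genes.

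**Figure D4:**
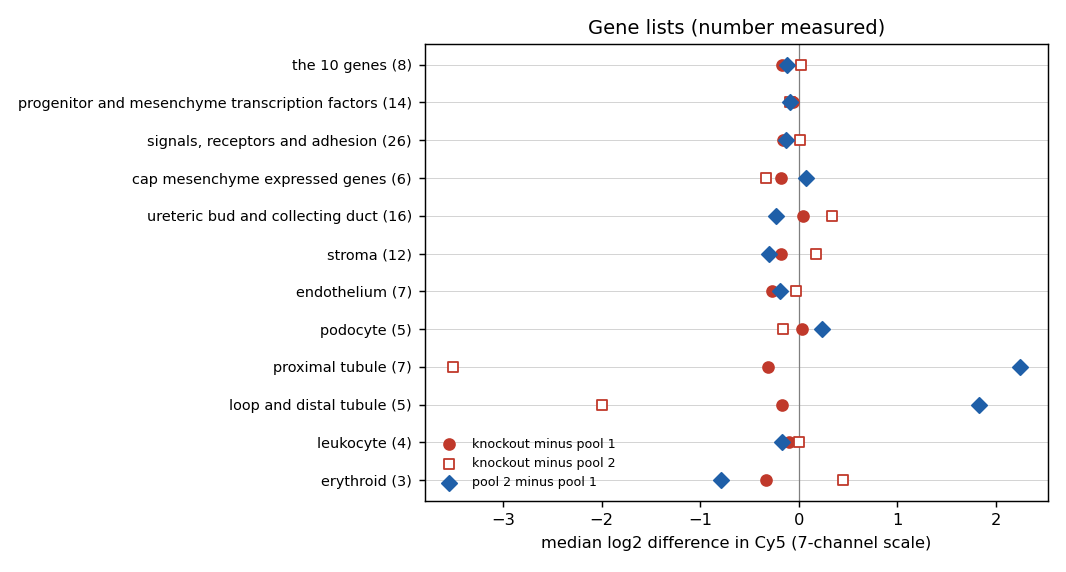
Median log2 difference in Cy5 (horizontal axis, 7-channel scale) of the 10 genes, of 3 lists of other nephron progenitor and early nephron genes and of 8 lists of cell type markers, with the number of genes measured in brackets. Filled red circles are knockout minus pool 1, open squares knockout minus pool 2 and blue diamonds pool 2 minus pool 1. The proximal tubule list lies at 2.25 in pool 2 minus pool 1 and the 10 genes at -0.12.

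The other genes of the programme were taken from 3 lists with 56 genes, 55 of them on the array and 41 tested in Cy5. None passed the test in either direction. The median was -0.037, 24 of 41 differences were negative, and groups did not overlap for 14 genes lower in knockout (17.7% of all genes tested) and 3 higher (21.9% of all genes tested). Among 12 transcription factor genes tested the median was -0.053. Lhx1, a homeobox gene of the renal vesicle that is also active in the ureteric bud, was at 9.22 and 8.52 (Cy5 level) on the knockout arrays, against 9.32 and 9.85 in pools 2 and 1, a difference of -0.72 ± 0.31 (SE, limma adjusted p = 0.806). Mecom, a zinc finger gene, stood at -0.21, Uncx, a homeobox gene, at -0.19 and Emx2, a homeobox gene of the ureteric bud and early nephron, at 0.22, none of them past the test (limma adjusted p = 0.806 each). On the 7-channel scale Meis2, which is also a stromal gene, had a pool 2 minus pool 1 difference of -0.90 in Cy5 and -1.10 in Cy3. Lhx1 had -0.51 and -0.47, Tcf21, a mesenchymal and podocyte regulator, -0.32 and -0.35, and Cited2, a co-regulator related to Cited1, 0.40 and 0.36.

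Among 23 genes of signals, receptors and adhesion tested the median was -0.0035. Wnt4, the signal that turns progenitors into epithelium, was at 7.87 and 7.86 (Cy5 level) on the knockout arrays and at 7.22 and 7.65 in pools 2 and 1. Both knockout values lay above both wild-type values, with a difference of 0.43 ± 0.18 (SE, limma adjusted p = 0.806). Gpc3, a proteoglycan gene that restrains bud growth, stood at -0.46 ± 0.18 and Fgf9, which supports progenitors, at -0.22. Between the pools the widest differences were those of Sfrp1, a Wnt antagonist gene, at 1.34 in Cy5 and 1.32 in Cy3, and of Cdh11, a mesenchymal cadherin gene, at -1.20 and -1.11, both pool 2 minus pool 1. Rspo1, a Wnt activator gene of the cap, stood at -0.72 and -0.85 and Sfrp2 at -0.67 and -0.78.

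The 6 tested genes of the third list, genes expressed in the cap mesenchyme, had a median of -0.30. Clec18a, a lectin gene, was at 6.96 and 6.78 (Cy5 level) on the knockout arrays and at 8.01 and 7.32 in pools 2 and 1. The knockout values were below both pools and the pools differed from each other, and the difference was -0.80 ± 0.26 (SE, limma adjusted p = 0.806). The growth factor gene Mdk stood at -0.54 ± 0.18 and the related Ptn at -0.69 ± 0.27, both lower on both knockout arrays, while the collagen gene Col2a1 stood at 0.27. In Cy5 of pool 2 over pool 1 these were 0.56 for Clec18a, 0.17 for Mdk, 0.73 for Ptn and -0.38 for Col2a1, and in Cy3 Ptn stood at 0.22.

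Over the 7 channels, the mean standardised profile of the 7 genes above background in at least 4 of them was lowest in Cy5 of KO_vs_WT replicate 2 (-0.69) and highest in Cy5 of pool 1 (0.61). Cy5 of KO_vs_WT replicate 1 stood at 0.21, above Cy5 of pool 2 (-0.085), so the profile did not separate the genotypes. The wild-type Cy3 channels ran from -0.21 to 0.098. Among 10015 other genes, genes with a high Pearson correlation to this profile were Ostc (0.980), Rcbtb2 (0.968), Cdca7 (0.960) and Rpa1 (0.955). The points are 7 channels of 4 arrays that share 3 kinds of RNA, so this is a description of likeness over these channels.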

How the data were processed

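Each array is one scanner output read with Agilent Feature Extraction 10.7.3.1, per the file headers. The deposited intensity values are, per the file headers, the median over pixels of each spot in Cy3 and Cy5, its local background, and the software's processed signal. Marks for spots above background, saturated or outlying come with them, and 0 spots were saturated. Of 45018 spots per array, 43379 were not controls.

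Median signals were corrected with normexp (offset 50) in limma 3.58.1 (R 4.3.3), and log2 values quantile normalised, over Cy5 of 4 arrays for the test and over 7 channels for pools. Outlier spots were left out, as were 123 spots in a dark patch of WT_self replicate 1, 0 of them of the genes reported. Spots of a probe were averaged, and a probe was well above background where over 50% of its spots were. Genes entered the test where both arrays of 1 genotype were above background, and the brightest probe stood for a gene. The test was limma, two-sided, with Benjamini-Hochberg adjustment over all genes and a threshold of 0.05. Shared-array ratios were loess normalised. Where a pool was not well above background, its fold was taken from the probe's own level. Signal over background and the number of arrays limit precision.

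The genes, lists and tests were chosen with earlier results of these data known. All 10 genes are named, and from each list up to 4 genes with the widest pool difference in Cy5 and up to 4 with the smallest p; some genes that these rules name are not reported here. The fit was tested on simulated data with each gene's own spread. Alternatives were median centring, processed signals, no filter, mean over probes, the patch kept, log ratios, a replicate block, each array left out, and 2-fold in place of 1.5-fold. The position of probes within transcripts was not used here.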

Additional observations from a re-analysis of the deposited data

How the results depend on the processing

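In the Cy5 comparison the median of the tested genes, -0.26, was 0.041 with median centring (all genes 0.33), -0.067 without the filter on dim probes and -0.037 with log ratios. Over fits that left out 1 array it ran from -0.35 to 0.011, genes called higher from 0 to 2580, lower from 0 to 1895, and genes of the set called from 0 to 1 (Crym, -0.44). Signs turned for Cited1 (0.19) and Dapl1 (0.041) with median centring, for Eya1 and Wt1 without WT_self replicate 1 (over the 4 fits from -0.18 to 0.082 and from -0.57 to 0.011), and for Osr1 (-0.019), Eya1 (0.077) and Fgf8 (-0.12) with log ratios, which draw on the nearly empty Cy3 channel. The cause was not tested, except that without WT_self replicate 1 only pool 2 remained. With the replicate number as a block, 0 genes were called higher and 0 lower, with a median of -0.26 for the set. The knockout numbers follow accession order. Same-numbered arrays share a wild-type pool through Cy3 of the KO_vs_WT arrays, but no pairing of their Cy5 RNAs is given. Same-numbered arrays deviated together at r = 0.033 over 16086 genes.

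Between pools, 651 genes were higher and 584 lower at 1.5-fold, 295 and 123 at 2-fold, 256 and 343 with median centring and 2144 and 2637 with processed signals, where 2 of the set were lower. With median centring the set's median was -0.40 and that of all genes -0.49. Knockout against pool 1 gave 74 higher and 18 lower, 25 and 0 at 2-fold, 215 and 7 with median centring, and 90 to 181 and 23 to 117 with 1 knockout array. Knockout against pool 2 gave 649 and 675, 142 and 290 at 2-fold, and 6818 and 220 with median centring, where the set's median was 0.29 and that of all genes 0.53. No gene of the set was past the limit in these comparisons, apart from those 2, Eya1 and Wt1. In Cy3, Eya1 was not well above background for pool 1, nor Wt1 for pool 2. Signal over background limits what can be said of Six2, Sall1 and Meox1.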
